A study of Mus musculus with 84 samples.

Results

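GLAST-negative and GLAST-positive astrocytes of the hindbrain of unimmunized C57BL/6J mice were compared in 10 RNA-seq libraries, 5 of each population, out of 84 libraries in all. The libraries were chosen by their titles, C_HB_A for the GLAST-negative and C_HB_AG for the GLAST-positive population, and no measured value was used to choose them. Hindbrain was cerebellum with brain stem. Cells of both populations had been sorted as CD11B-negative, CD45-negative and ACSA-2+ after trypsin digestion, and were then split on surface GLAST, so all 10 libraries shared that gate and differed in the last step. ACSA-2 is the protein of Atp1b2 and GLAST that of Slc1a3. The controls served an experiment on experimental autoimmune encephalomyelitis (EAE), in which female mice of 10 weeks were immunized. The age of the controls was not stated separately. Astrocytes of up to 2 mice were pooled for a library, and no source said which libraries came from which animals. Some numbers in the library names are shared between the populations, and the main fit did not pair libraries by them. Blocks for these numbers are given at the end. The p-values therefore measured spread between libraries. That spread was estimated from all 66 libraries of the EAE experiment together, not from these 10 alone.

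GLAST is a glutamate transporter that astrocytes use to clear glutamate from synapses. In the cerebellum the highest levels belong to Bergmann glia, radial astrocytes whose fibres run through the molecular layer beside the dendrites of Purkinje cells. Bergmann glia are known for AMPA-type glutamate receptors built from GluA1 and GluA4 without GluA2, which makes these channels permeable to calcium, and for a response to sonic hedgehog released by Purkinje cells. Gdf10 encodes a secreted TGF-beta family member and is a marker of Bergmann glia. Brain stem astrocytes and velate astrocytes of the granule layer are other hindbrain types, and in bulk libraries fewer cells of a type and less RNA per cell cannot be told apart.

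The QuantSeq libraries read the end of transcripts next to the poly(A) tail, so that counts were not divided by transcript length and levels were compared between libraries within a gene. Levels are given in CPM, the share of a library's counts on a common scale after correction by the TMM method of edgeR, with libraries of a population listed in the order of their replicate numbers from 1 to 5. Totals were 1554784 to 2975879 counts in GLAST-negative and 2423406 to 3957998 in GLAST-positive libraries. A gene with 3 counts or fewer in a library was taken as not detected, a floor of 1.04 to 2.00 CPM in GLAST-negative and 0.736 to 1.23 CPM in GLAST-positive libraries that covers counting error only. Genes above the floor numbered 12392 to 14261 and 11512 to 13126. Counts of the mitochondrial genome made up 10.8 to 13.4% of GLAST-negative and 5.15 to 5.91% of GLAST-positive libraries, and the 50 genes with most counts 31.5 to 32.5% and 24.3 to 25.9%. These ranges did not overlap between the populations for the last 2 measures, and their part in the results was not tested. The library names carry an S number, 32 to 51 in the GLAST-negative and 68 to 95 in the GLAST-positive libraries. What it stands for is not given in the sources used here. Population and S number cannot be told apart within these 10 libraries.

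Genes were called at an adjusted p under 0.05 in edgeR's two-sided quasi-likelihood test, with Benjamini-Hochberg adjustment over all 23324 genes tested, and a log2 fold change beyond 1. Adjusted p-values below come from this fit unless a left-out library or a term is named, and a difference is given as log2 fold change ± SE. That SE is the size of the log2 fold change divided by the square root of the test's F statistic. Of the genes tested, 1646 (7.06%) were called higher in GLAST-negative and 792 (3.4%) higher in GLAST-positive libraries, 10.5% in all. These shares are the reference for every count of list members below. The groups did not overlap in 1723 genes higher in GLAST-negative (7.39%) and in 1199 genes higher in GLAST-positive libraries (5.14%). Protein-coding genes were 73.998% of the first set of calls and 95.7% of the second. At or under the floor in all 5 GLAST-positive libraries were 523 of the 1646 genes, and at or under it in all 5 GLAST-negative libraries 21 of the 792. Whether counting used strand is not given in the sources used here. Of the 173 genes named below 48 have exons that overlap a gene on the other strand and 10 a gene on the same strand, whose reads could not be told apart. The median log2 fold change (GLAST-negative minus GLAST-positive) over all genes above the floor in either population was 0.13, with genes at the floor in 1 population set to their bound.

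**Figure D1:**
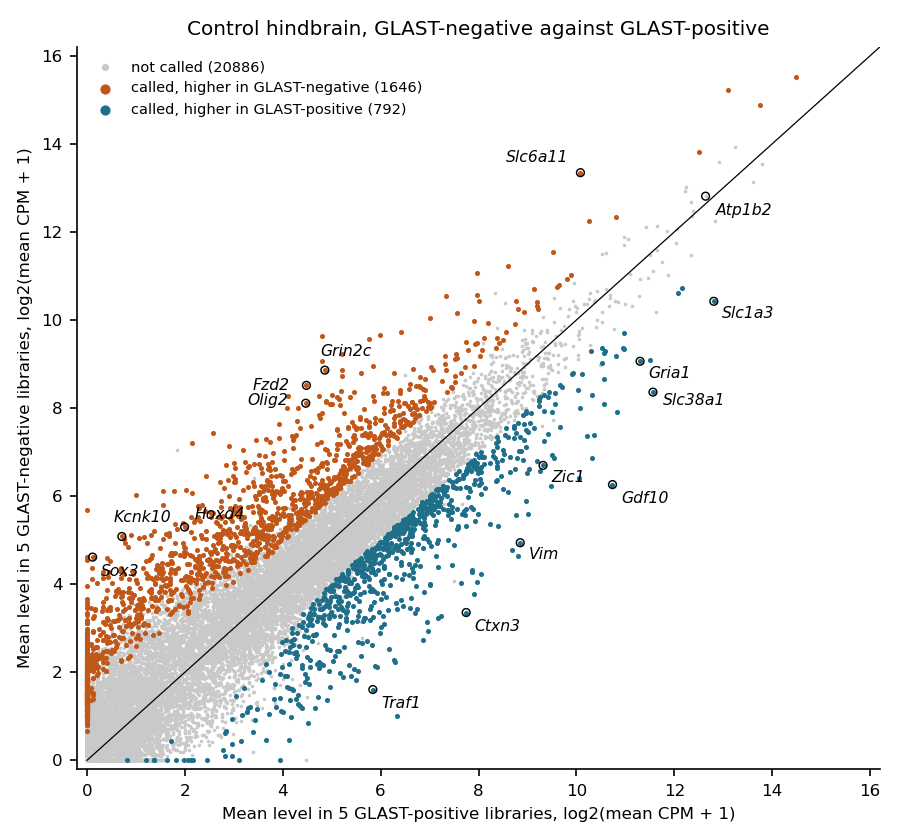
Mean level of each gene tested in 5 GLAST-negative (vertical) and 5 GLAST-positive (horizontal) control hindbrain libraries, as log2(mean CPM + 1), with genes called in either direction in colour. The line marks equal levels. Gdf10, Slc1a3, Gria1 and Slc38a1 lie under it at high levels, Slc6a11 and Grin2c above it, and Atp1b2, the gene of the sorting marker shared by both populations, lies close to it.

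The genes of the sort were read first. Slc1a3, whose protein split the populations, stood at 1771, 1219.6, 1407, 1137 and 1331 CPM in GLAST-negative and at 6471, 8385, 6414, 9085 and 5485 CPM in GLAST-positive libraries, with no overlap and a difference of 2.38 ± 0.28 (adjusted p = 7.90e-10). Transcript was therefore well above the floor in the GLAST-negative population too, with a mean of 1373 ± 245 (SD, n = 5) CPM against 7168 ± 1504. Since the protein was the basis of the sort, this difference is a check of the labels. Atp1b2, shared by both gates, stood at 6987, 8566, 8576, 5703 and 6113 CPM and at 6013, 6330.3, 6744, 6523 and 6281 CPM, and its difference of 0.17 ± 0.29 did not pass the test (adjusted p = 0.807).

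Gdf10 stood at 107, 63.9, 81.9, 90.7 and 35.4 CPM in GLAST-negative and at 1826, 2234, 1375, 1879.9 and 1215 CPM in GLAST-positive libraries. Every GLAST-positive library was more than 10 times above every GLAST-negative one, the means were 75.7 ± 27.3 and 1706 ± 411 CPM (SD, n = 5), and the difference was 22.5-fold, or 4.49 ± 0.51 in log2 (adjusted p = 1.88e-10). Control spinal cord GLAST-negative libraries held a mean of 4.95 ± 5.68 CPM of Gdf10 and 179 ± 39.7 CPM of Slc1a3 (SD, n = 5). Gdf10 lies on chromosome 14 (33923587 to 33937983, plus strand) and Slc1a3 on chromosome 15 (8634124 to 8710764, minus strand) of GRCm38.

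The promoters of these genes, which mark the GLAST-positive population, are shown as the 250 bases before the start site in RefSeq (GRCm38.p6). The strand is that of the gene. Capitals mark the GC box GGGCGG and the TATA box TATAAA, searched on both strands.
Gdf10, chr14:33923337-33923586, plus strand: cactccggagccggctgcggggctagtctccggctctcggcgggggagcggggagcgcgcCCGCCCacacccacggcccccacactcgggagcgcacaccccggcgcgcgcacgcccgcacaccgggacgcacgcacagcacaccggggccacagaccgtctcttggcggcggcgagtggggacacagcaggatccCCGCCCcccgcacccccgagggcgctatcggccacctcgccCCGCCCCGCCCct
Slc1a3, chr15:8710808-8711057, minus strand: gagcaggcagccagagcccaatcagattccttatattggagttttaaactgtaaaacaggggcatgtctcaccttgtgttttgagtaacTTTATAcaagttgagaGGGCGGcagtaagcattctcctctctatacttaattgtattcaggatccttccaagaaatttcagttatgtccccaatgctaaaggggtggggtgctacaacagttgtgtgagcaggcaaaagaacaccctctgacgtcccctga
The Gdf10 window held 4 GC boxes and no TATA box, and the Slc1a3 window 1 of each. Of all 32851 windows of this length, 32.7% held a GC box and 12.4% a TATA box. A match of letters is a description and no binding was measured.

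Of the 18 genes of the Bergmann glia list, 15 were called higher in GLAST-positive libraries and none higher in GLAST-negative ones, against 3.4% and 7.06% of all genes tested. Their median log2 fold change was -2.65, against 0.13 for all genes, and their summed level was 10684 to 14665 CPM in GLAST-negative and 28321 to 33326 CPM in GLAST-positive libraries. The list holds Slc1a3, the gene of the protein used for the sort, and without it 14 of 17 genes were called, with a median log2 fold change of -2.93 and summed levels of 9547 to 13446 CPM in GLAST-negative and 22685 to 24941 CPM in GLAST-positive libraries. Hopx, a homeodomain-only protein found in radial glia, stood at 126, 67.2, 65.9, 53.3 and 56.2 CPM against 678, 874, 611, 698 and 685 CPM, a difference of 3.26 ± 0.29 (adjusted p = 7.07e-14). Sept4, a septin of the Bergmann glia cytoskeleton, stood at 243, 219, 190.5, 372 and 171 CPM against 1919, 2166, 1533, 1569 and 1908 CPM, a difference of 2.93 ± 0.27 (adjusted p = 1.44e-13). The intermediate filament gene Vim stood at 43.8, 28.98, 38.6, 16.97 and 20.2 CPM against 535, 532, 441, 415 and 382 CPM, a difference of 3.96 ± 0.49 (adjusted p = 3.34e-09). All 5 GLAST-positive libraries were above all 5 GLAST-negative ones for each of these genes, and for Hopx the GLAST-negative replicate 1 was the highest of its group. A2m, a protease inhibitor, stood at 37.1 to 53.8 against 458 to 599 CPM (adjusted p = 1.95e-10). Wif1, a secreted Wnt inhibitor, was near the floor in the GLAST-negative population at 5.52, 5.06, 0, 3.81 and 2.81 CPM and stood at 50.3, 74.7, 28.1, 40.6 and 97.7 CPM in the GLAST-positive one, 4.01 ± 0.58 in log2 (adjusted p = 7.10e-07). Its highest GLAST-negative library was under its lowest GLAST-positive one. The matrix glycoprotein gene Tnc stood at 31.02, 11.04, 16.6, 15.9 and 19.7 CPM against 254, 332, 187, 216 and 168 CPM, a difference of 3.61 ± 0.61 (adjusted p = 6.50e-06). Fabp7, a fatty acid binding protein of radial glia, overlapped between the groups (56.4 to 145 against 104 to 508 CPM, 1.70 ± 0.53, adjusted p = 0.0205), and its call was lost without GLAST-negative replicate 4 (adjusted p = 0.058) or without GLAST-positive replicate 4 (adjusted p = 0.0637). The 3 genes not called were Zeb2 (79.5 to 158 against 172 to 201 CPM), Gpr37l1 (7357 to 11426 against 10818 to 14310.5 CPM) and Etv4 (56.1 to 104 against 48.6 to 84.1 CPM). Gpr37l1 made up most of the summed level of the list in GLAST-negative libraries, with or without Slc1a3. It was also a large part of the sum in GLAST-positive ones, so the sums do not follow the called genes alone. For Zeb2 the groups did not overlap, the difference was 0.87 ± 0.23 and the adjusted p was 0.00463, so that it missed the fold threshold alone. Without GLAST-negative replicate 4 it was called, with a difference of 1.11 (adjusted p = 0.000597).

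**Figure D2:**
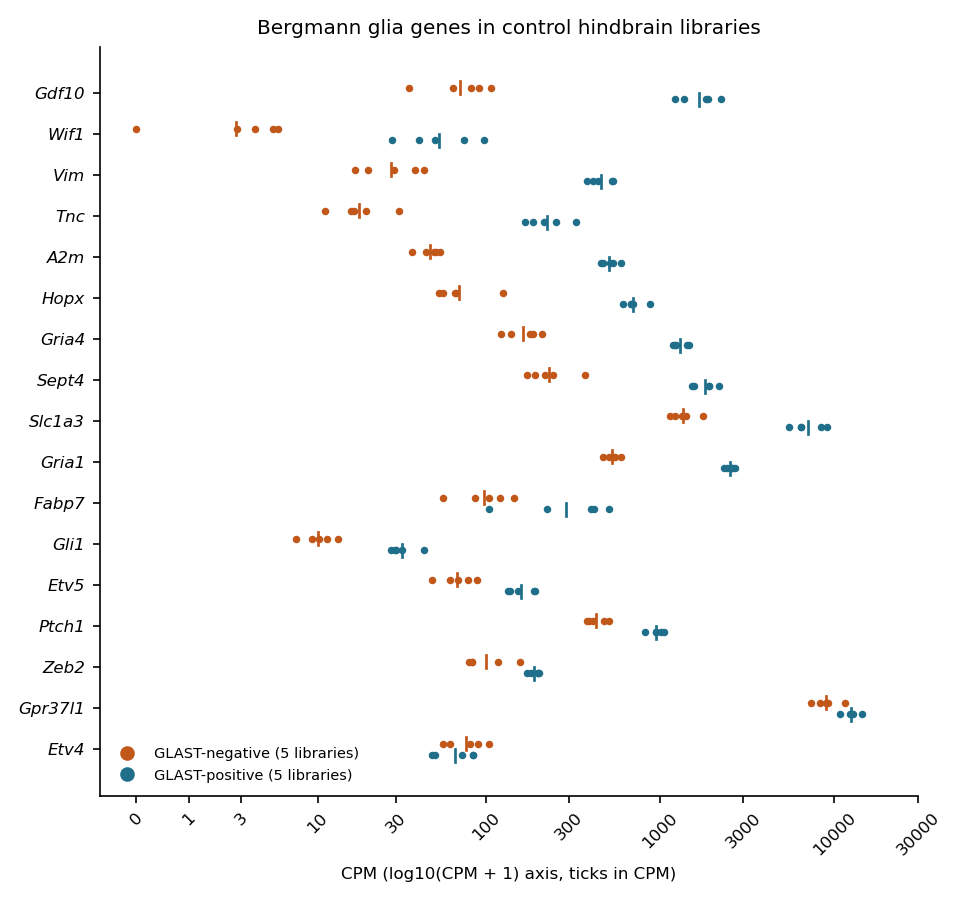
CPM of Bergmann glia genes of the list in each of the 10 control hindbrain libraries (points) with the mean of log10(CPM + 1) of each group (bars), ordered by fold change. The groups overlap for Gpr37l1, Etv4 and Fabp7 and are apart for the other genes shown.

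Sonic hedgehog signalling runs from the receptor Ptch1 through Smo to the Gli factors, and Gli1, Ptch1 and Hhip are among its standard target genes. Of 13 genes of the pathway, 5 were called higher in GLAST-positive and 2 higher in GLAST-negative libraries, against 3.4% and 7.06% of all genes tested. Ptch1 stood at 393, 479, 508, 411 and 382 CPM in GLAST-negative and at 1051, 1018, 825, 946 and 944 CPM in GLAST-positive libraries (1.14 ± 0.26, adjusted p = 8.59e-04). Gli1 stood at 7.22, 9.20, 13.3, 11.4 and 10.1 CPM against 29.4, 43.6, 30.02, 27.9 and 32.2 CPM (1.67 ± 0.46, adjusted p = 0.00697). All 5 GLAST-positive libraries were above all 5 GLAST-negative ones for both genes. Hhip, a decoy receptor, stood at 11.5, 5.06, 12.7, 8.66 and 5.62 CPM against 41.3, 37.5, 33.6, 34.02 and 29.5 CPM (2.02 ± 0.42, adjusted p = 2.29e-04). The groups did not overlap for Hhip either. The co-receptor gene Gas1 was called in this direction as well (67.9 to 122 against 182 to 268 CPM, adjusted p = 0.0158, call lost without GLAST-negative replicate 3 with an adjusted p of 0.0508). The co-receptor gene Boc had the opposite order, with 55.7, 86.03, 61.3, 81.03 and 85.4 CPM in GLAST-negative and 18.4, 12.5, 3.26, 14.7 and 14.7 CPM in GLAST-positive libraries (2.54 ± 0.52, adjusted p = 2.24e-04). Smo, the signal transducer, was also higher in the GLAST-negative population (16.1, 48.8, 29.97, 91.4 and 51.7 CPM against 12.7, 11.4, 10.1, 12.4 and 6.38 CPM, 2.17 ± 0.65, adjusted p = 0.0158), and without GLAST-negative replicate 4, its highest library, the difference was 1.75 with an adjusted p of 0.0819. With S number as a term in the fit (described below), Ptch1, Gli1 and Smo lost their calls with the same direction, Gas1 lost its call with the opposite one (0.08), and Boc and Hhip kept them. For Gli1 the SE with the term was 3.80, above the size of its difference, so its test could not decide.

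The AMPA receptor subunits differed in direction. Gria1, which encodes GluA1, stood at 471, 549, 537, 602 and 510.3 CPM in GLAST-negative and at 2694, 2571.2, 2413, 2328 and 2602 CPM in GLAST-positive libraries (2.24 ± 0.28, adjusted p = 4.70e-09). Gria4, which encodes GluA4, stood at 187, 179, 122, 211 and 139.9 CPM against 1471, 1241, 1181, 1219.6 and 1433 CPM (2.96 ± 0.28, adjusted p = 9.11e-13). Gria2, whose subunit GluA2 makes AMPA channels impermeable to calcium, had the reverse order, with 298, 241, 265, 330.3 and 297 CPM in GLAST-negative and 55.6, 85.3, 97.6, 96.7 and 68.5 CPM in GLAST-positive libraries (1.83 ± 0.33, adjusted p = 2.91e-05). None of the 3 genes overlapped between the populations. Within a library these counts were not compared between subunits, since they were not taken per length.

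Over all 24 glutamate receptor genes, 5 were called higher in GLAST-negative and 3 higher in GLAST-positive libraries, against 7.06% and 3.4% of all genes tested. Grin2c, the NMDA receptor subunit GluN2C, stood at 345, 621, 490.2, 534 and 329 CPM in GLAST-negative and at 21.7, 23.1, 47.97, 29.7 and 17.7 CPM in GLAST-positive libraries (16.6-fold, 4.05 ± 0.45, adjusted p = 7.96e-11). Grm5, the metabotropic receptor mGluR5, stood at 34.8, 26.2, 27.3, 48.5 and 33.2 CPM against 1.23, 3.03, 2.94, 0.254 and 2.95 CPM (4.02 ± 0.51, adjusted p = 5.53e-09). The kainate receptor gene Grik2 had no count in any GLAST-positive library and 3.33 to 8.28 CPM in GLAST-negative ones, at least 5.31-fold higher against the highest floor of the GLAST-positive libraries. Grm7, a presynaptic metabotropic receptor, completed the set higher in the GLAST-negative population (0 to 4.67 against 0 to 0 CPM, adjusted p = 0.00489). Grin3a did not differ by the test (69.01 to 91.4 against 67.2 to 115 CPM, adjusted p = 0.886).

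**Figure D3:**
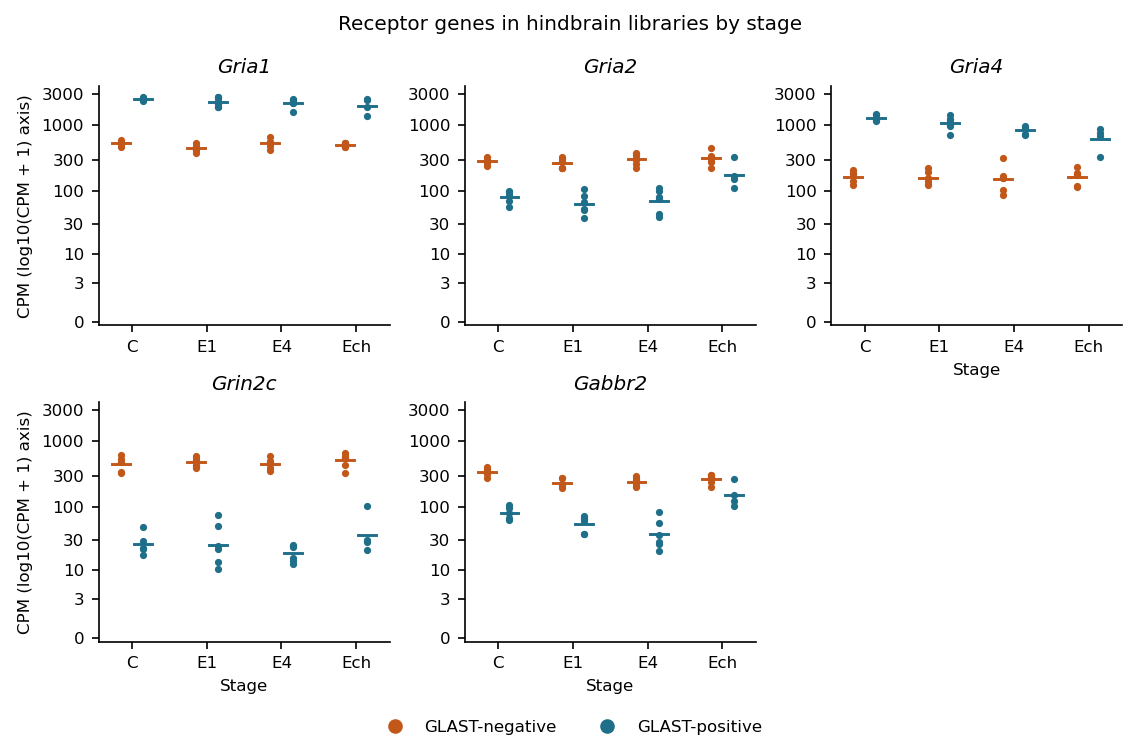
CPM of 5 receptor genes in hindbrain libraries of GLAST-negative and GLAST-positive astrocytes of controls (C) and at the 3 stages of EAE (E1 with a limp tail, E4 with hind limb paralysis, Ech chronic), on a log10(CPM + 1) axis. Points are libraries and bars the means of log10(CPM + 1). Gria1 and Gria4 are higher and Grin2c lower in GLAST-positive libraries at each stage, and Gria2 and Gabbr2 overlap at the chronic stage through 1 GLAST-positive library.

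Receptors for GABA also split. Both subunits of the GABA-B receptor were higher in the GLAST-negative population, Gabbr1 with 546, 597, 603, 544 and 625 CPM against 254, 235, 268, 262 and 283 CPM (1.16 ± 0.21, adjusted p = 3.58e-05) and Gabbr2 with 339, 375, 316, 276 and 400.2 CPM against 62.1, 66.7, 80.9, 97.5 and 107 CPM (2.04 ± 0.39, adjusted p = 5.97e-05). The GABA-A subunit gene Gabra2 was higher in the GLAST-positive population, with 93.5, 83.7, 125, 141 and 119 CPM against 553, 279.7, 262, 322 and 361 CPM (1.66 ± 0.38, adjusted p = 8.60e-04). Gabra4 (57.97 to 102 against 157 to 189.6 CPM, adjusted p = 0.00462) was called in the same direction. The groups overlapped for neither of these genes. The beta subunit gene Gabrb1 did not pass the test (739 to 917 against 901 to 1242 CPM, adjusted p = 0.489), and its exons overlap those of Gabra4 on the other strand. Of 19 GABA and glycine receptor genes, 2 were called higher in GLAST-negative and 4 higher in GLAST-positive libraries, against 7.06% and 3.4% of all genes tested. With S number as a term, the calls of Gabra2 and Gabra4 were lost and those of the GABA-B genes stayed.

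Among genes that move and convert transmitters, Slc6a11, the GABA transporter GAT3, stood at 9746, 12368, 12230.3, 8535 and 9174 CPM in GLAST-negative and at 879, 696, 1343, 819.5 and 1677 CPM in GLAST-positive libraries (9.61-fold, 3.27 ± 0.40, adjusted p = 2.72e-09). Slc38a1, a neutral amino acid transporter that carries glutamine, had the opposite order at 376, 303, 349, 267 and 345 CPM against 3669.9, 3315, 2314, 3085 and 2752 CPM (9.23-fold, 3.21 ± 0.28, adjusted p = 5.79e-14). The related glutamine transporter Slc38a3 was higher in the GLAST-negative population (345 to 589 against 99.8 to 159 CPM, adjusted p = 2.09e-06), as was the cystine and glutamate exchanger Slc7a11 (261 to 426 against 33.5 to 116 CPM, adjusted p = 4.25e-05), whose call was lost with S number as a term. Slc1a2, the other main astrocytic glutamate transporter GLT-1, stood at 5922, 7634, 6975, 5791 and 6436 CPM against 5393, 4961, 4937, 5261 and 5272 CPM. Its groups did not overlap, but the difference of 0.34 ± 0.27 did not pass the test (adjusted p = 0.419). Glul, glutamine synthetase (2334 to 4175 against 1722 to 2168 CPM), had an adjusted p of 0.0329 with a difference under the fold threshold. Of the 20 genes of this list, 5 were called higher in GLAST-negative and 2, Slc38a1 and Slc1a3, higher in GLAST-positive libraries.

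Mature astrocyte markers were present in both populations. Of 25 such genes, 10 were called higher in GLAST-negative and 1 higher in GLAST-positive libraries, with a median log2 fold change of 0.48 and summed levels of 49947 to 58859 CPM in GLAST-negative and 43615 to 48683 CPM in GLAST-positive libraries. Sox9 (1150.2 to 1775 against 1123 to 1457 CPM), Hepacam (623 to 755 against 524 to 699 CPM), Ttyh1 (2001 to 2212 against 2026 to 2304 CPM) and Aldh1l1 (71.4 to 87.9 against 87.9 to 181 CPM) did not pass the test. Gfap, the main intermediate filament gene of white matter and reactive astrocytes, stood at 25.1 to 39.3 against 6.54 to 36.4 CPM (adjusted p = 0.348). Cpe, which encodes a prohormone-processing peptidase, stood at 2322, 2841, 2075, 2641 and 2157 CPM in GLAST-negative and at 322, 320.3, 560.3, 329 and 409 CPM in GLAST-positive libraries (2.63 ± 0.24, adjusted p = 1.44e-13). Agt, angiotensinogen (862 to 1157 against 159.8 to 295 CPM, adjusted p = 8.03e-05), and Clu, clusterin (1789.5 to 2172 against 730.4 to 1056 CPM, adjusted p = 6.71e-04), were called in the same direction. The calcium-binding protein gene S100b was the marker called higher in the GLAST-positive population, with 1511, 1716, 1509.8, 1705 and 1337 CPM against 5155, 4195, 3846, 3197 and 5086 CPM (1.47 ± 0.20, adjusted p = 8.51e-08). Acsbg1 (1058 to 1465 against 2040.4 to 2442 CPM, adjusted p = 0.0357) and Mlc1 (1414 to 1689.6 against 2313 to 2738 CPM, adjusted p = 0.0413) did not overlap, and their differences of 0.81 ± 0.27 and 0.73 ± 0.25 towards the GLAST-positive population were under the fold threshold.

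Genes of the perivascular endfoot and of gap junctions were mostly higher in the GLAST-negative population where they were called. The water channel gene Aqp4 stood at 1774, 1645, 1558, 1564 and 2102 CPM against 789, 787, 667, 834 and 813 CPM (1.15 ± 0.32, adjusted p = 0.00944). Dmd, the dystrophin gene (269 to 452 against 92.5 to 126 CPM, adjusted p = 8.33e-06), and Agrn, the agrin gene (176 to 328 against 45.4 to 108 CPM, adjusted p = 2.14e-05), had the same order, and of 18 endfoot genes 4 were called, all in this direction. The endfoot list as a whole did not follow them. Its median log2 fold change was -0.095, and its summed level was 13922 to 18077 CPM in GLAST-negative and 17771 to 20891 CPM in GLAST-positive libraries. Without overlap were 4 endfoot genes higher in GLAST-negative and 2 higher in GLAST-positive libraries, against 7.39% and 5.14% of all genes tested. Of 7 connexin genes, 4 were called higher in GLAST-negative and 1 higher in GLAST-positive libraries. Gjc3 (connexin 29) was the latter, with 108, 57.5, 99.9, 91.1 and 98.4 CPM against 555, 526, 431, 598 and 427 CPM (2.48 ± 0.26, adjusted p = 1.90e-11). Gjb6 (connexin 30) was higher in the GLAST-negative population (1283 to 1985 against 424 to 799 CPM, adjusted p = 0.00348), and so was Gjb1 (39.9 to 111 against 2.45 to 16.7 CPM), a connexin of oligodendrocytes. Gja1 (connexin 43) did not overlap (1750.02 to 2433 against 657 to 1270.1 CPM), but its adjusted p of 0.0472 rose above 0.05 when any library other than GLAST-positive replicate 4 was left out, with values of 0.0558 to 0.115. Among ion transport genes, Kcnk1, a two-pore potassium channel, stood at 244, 412, 310.4, 298 and 309.7 CPM against 23.3, 20.5, 67.6, 27.7 and 17.4 CPM (3.33 ± 0.39, adjusted p = 5.40e-10), while Kcnj3, an inward rectifier gated by G proteins, stood at 11.05, 12.9, 9.99, 18.4 and 12.9 CPM against 129.97, 142, 101.2, 102 and 108 CPM in the opposite order (3.15 ± 0.35, adjusted p = 9.58e-11). Kcnk10 (27.1 to 39.9 against 0 to 1.96 CPM), Kcnd2 (209 to 253 against 11.4 to 46.4 CPM) and Kcna6 (40.03 to 66.6 against 2.04 to 23.5 CPM) were higher in GLAST-negative libraries, and the sodium pump regulator Fxyd7 (0.46 to 8.66 against 20.6 to 31.7 CPM) in GLAST-positive ones. Kcnj10, the main inward rectifier of astrocytes, did not pass the test (650.2 to 774 against 681 to 929 CPM, adjusted p = 0.817). Over 27 genes of this list, 7 were called higher in GLAST-negative and 3 in GLAST-positive libraries.

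Transcription factor genes that mark position along the neural tube divided the populations. Zic factors are expressed in the cerebellar anlage and dorsal neural tube, Pax3 in the dorsal neural tube, Hox genes from the hindbrain backwards in the order of their paralogue groups, and Otx genes in forebrain and midbrain. Zic1 stood at 119, 102, 103, 100.1 and 90.5 CPM in GLAST-negative and at 704, 616, 567, 677 and 622 CPM in GLAST-positive libraries (2.63 ± 0.29, adjusted p = 7.36e-11). Zic4 stood at 19.97, 24.8, 15.98, 20.8 and 17.99 CPM against 129.97, 135, 103, 188 and 159 CPM (2.84 ± 0.41, adjusted p = 2.22e-07), and Zic5 at 6.74 to 13.6 against 45.5 to 126 CPM (adjusted p = 3.77e-05). Zic1 and Zic4 lie next to each other on opposite strands with overlapping exons in the annotation, so reads from the shared stretch may be missing from their counts. Pax3 stood at 58.2, 56.6, 69.3, 63.7 and 59.01 CPM against 195, 104, 116, 165 and 166 CPM (1.28 ± 0.33, adjusted p = 0.00347). Meis2 had the opposite order, with 98.2, 136, 137, 138 and 145 CPM against 3.68, 9.85, 4.90, 19.04 and 3.19 CPM (3.98 ± 0.49, adjusted p = 2.86e-09), as had Irx3, with 179, 233, 212, 231 and 182 CPM against 95.6, 76.2, 71.8, 63.7 and 106 CPM (1.33 ± 0.27, adjusted p = 1.39e-04). En2, a marker of the midbrain and hindbrain border (5.89 to 27.6 against 20.1 to 87.3 CPM, adjusted p = 0.0282, call lost without GLAST-negative replicates 2, 4 or 5 or GLAST-positive replicate 4 with an adjusted p of 0.06 to 0.106), and Zic2 (2.81 to 4.00 against 11.4 to 31.99 CPM, adjusted p = 0.00462) were higher in GLAST-positive libraries. Over 22 tested of 23 patterning genes of isthmus and cerebellum, 6 were called higher in GLAST-positive and 2 higher in GLAST-negative libraries. The shares over all genes tested were 3.4% and 7.06%.

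Hox genes were detected mainly in GLAST-negative libraries. Of 14 tested of 15 genes of paralogue groups 1 to 5, 6 were called higher there and none higher in GLAST-positive libraries, with summed levels of 50.6 to 102 CPM in GLAST-negative and 0 to 17.2 CPM in GLAST-positive libraries. Hoxd4 stood at 25.1, 48.3, 51.3, 45.01 and 21.9 CPM in GLAST-negative and at 4.09, 0, 7.51, 3.30 and 0 CPM in GLAST-positive libraries (3.69 ± 0.60, adjusted p = 3.70e-06), and its exons overlap those of neighbouring Hoxd transcripts. Hoxc4 had no count in any GLAST-positive library and 5.10, 8.74, 4.66, 9.35 and 6.74 CPM in GLAST-negative ones, at least 5.64-fold higher. Of 18 tested of 24 genes of groups 6 to 13, Hoxb8 alone was called, with 8.50, 0, 0, 4.50 and 6.18 CPM against no count in GLAST-positive libraries, so that the groups met at 0 in 2 libraries. Control spinal cord libraries held 194 ± 59.5 CPM of Hoxd4 and 118 ± 63.2 CPM of Hoxb8 (SD, n = 5). Otx2 stood at 93.9, 98.9, 101.2, 119 and 83.7 CPM in GLAST-negative and at 2.86, 2.65, 15.3, 2.28 and 12.3 CPM in GLAST-positive libraries (3.79 ± 0.69, adjusted p = 3.39e-05), and of 10 forebrain patterning genes it was 1 of 3 called, all higher in GLAST-negative libraries. With S number as a term, the calls of Zic4, Zic5, Pax3 and Otx2 were lost with the same direction, and those of Zic1, Meis2, Irx3, Hoxd4, Hoxc4 and Hoxb8 stayed. For Zic4 and Otx2 the SE with the term exceeded the size of the difference, so these tests could not decide.

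**Figure D4:**
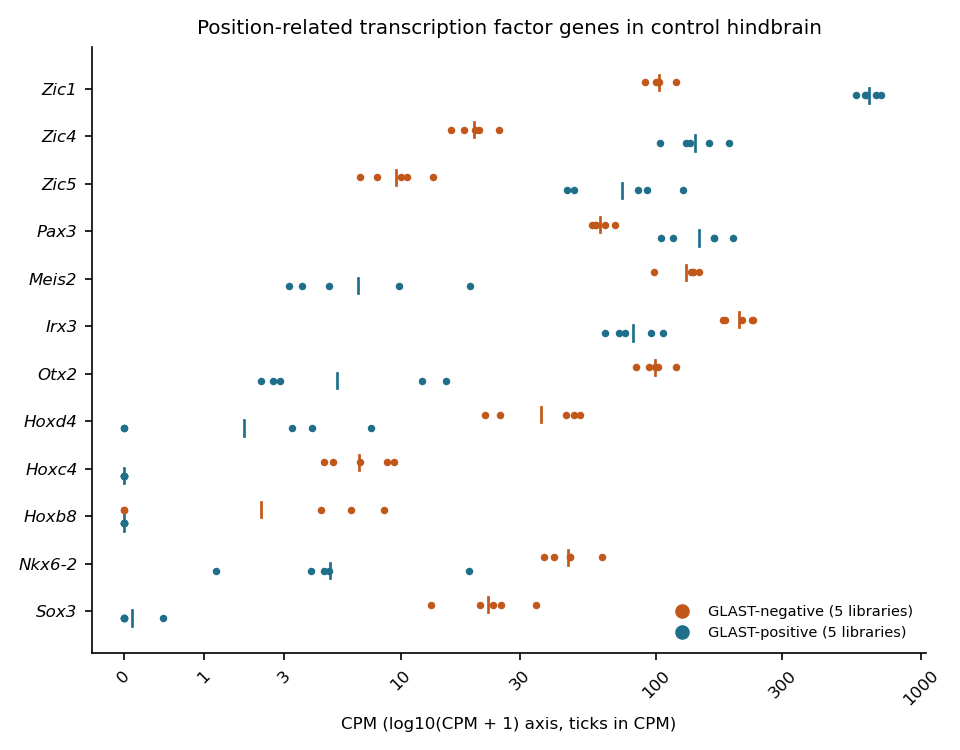
CPM of 12 transcription factor genes in each of the 10 control hindbrain libraries (points) with the mean of log10(CPM + 1) of each group (bars). Sox3, a factor of neural progenitors, is shown beside genes with a restricted position along the neural tube. Zic1, Zic4, Zic5 and Pax3 are higher in GLAST-positive libraries and the other 8 genes in GLAST-negative ones, where Hoxb8 is at 0 in 2 libraries.

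Other factors of glial development followed. Id2 stood at 1215, 1330.04, 1032, 959.8 and 1139.8 CPM in GLAST-negative and at 165, 205, 215, 155 and 198 CPM in GLAST-positive libraries (2.60 ± 0.34, adjusted p = 1.34e-08), and Id4, another inhibitor of basic helix-loop-helix factors, had the opposite order at 157, 65.8, 163, 74.4 and 117 CPM against 833, 779, 491, 1237 and 356 CPM (2.68 ± 0.48, adjusted p = 2.17e-05, call lost with S number as a term). Hes5, a target of Notch signalling, stood at 514, 545, 445, 365 and 356 CPM against 28.6, 48.5, 76.7, 36.05 and 45.9 CPM (3.24 ± 0.42, adjusted p = 1.34e-08). Of 16 Notch pathway genes, 6 were called higher in GLAST-negative and none higher in GLAST-positive libraries, among them the ligand-like gene Dner (172 to 252 against 26.5 to 57.4 CPM), the target Hey1 (60.3 to 87.9 against 16.3 to 34.6 CPM) and Rbpj, which encodes the nuclear partner of Notch (23.98 to 39.5 against 5.89 to 18.5 CPM). Sox8 (212 to 356 against 67.5 to 124 CPM, adjusted p = 4.74e-07) and Nkx6-2 (37.3 to 61.8 against 1.23 to 18.9 CPM, adjusted p = 3.52e-05) were higher in GLAST-negative libraries, and Etv5 in GLAST-positive ones (48.9 to 88.6 against 134 to 193 CPM, adjusted p = 0.00819). Nfia, Nfib and Sox2, which are needed for astrocyte formation, did not pass the test, at 456 to 540.1 against 541 to 708 CPM, 343 to 483 against 390.3 to 588 CPM and 445 to 767 against 360.2 to 514 CPM.

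Secreted signals and their receptors were called in both directions. Of 38 tested of 39 Wnt pathway genes, 13 were called higher in GLAST-negative and 5 higher in GLAST-positive libraries. The receptor gene Fzd2 stood at 352, 419, 361, 311 and 381 CPM against 13.9, 23.1, 24.8, 22.8 and 22.1 CPM (4.09 ± 0.44, adjusted p = 5.68e-11), and Sfrp5, a secreted Wnt antagonist, at 1094, 888, 812, 584 and 667 CPM against 52.3, 29.2, 87.5, 43.4 and 100.4 CPM (3.69 ± 0.50, adjusted p = 4.05e-08). The ligand Wnt7b (472 to 583 against 129 to 184 CPM) and the receptor Fzd9 (61.6 to 124 against 2.28 to 13.5 CPM) had the same order. Dkk3, of the Dickkopf family, was higher in the GLAST-positive population, with 28.05, 37.3, 25.3, 32.2 and 17.99 CPM against 119, 123, 129, 140.4 and 133 CPM (2.19 ± 0.35, adjusted p = 2.06e-06), beside Wif1, Fzd1 (13.8 to 33.3 against 32.6 to 288 CPM) and Lgr6 (50.1 to 86.2 against 93.01 to 219.6 CPM). With S number as a term, Wif1, Fzd1 and Lgr6 lost their calls with the same direction. The log2 fold change of Wif1 was then -4.01 with an F statistic that vanished, so no SE could be derived and its test could not decide.

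Of 40 tested of 42 TGF-beta and BMP pathway genes, 9 were called higher in GLAST-negative and 5 higher in GLAST-positive libraries, Gdf10, Id4 and Smad3 among the latter. The ligand gene Tgfb2 stood at 77.3, 91.6, 112, 80.3 and 117 CPM against 9.40, 5.31, 18.3, 10.9 and 17.4 CPM (2.95 ± 0.37, adjusted p = 4.76e-09), and Bmp7 (12.1 to 29.8 against 0 to 5.40 CPM) and the BMP-binding matricellular gene Smoc1 (34.04 to 56.2 against 3.03 to 7.61 CPM) were higher in the same population. Smad3, a transducer of TGF-beta signals, had the opposite order and no overlap, with 24.6, 25.3, 23.98, 14.5 and 14.6 CPM against 151, 214, 169.7, 161 and 174 CPM (3.08 ± 0.39, adjusted p = 5.03e-09). FGF receptor genes were divided too. Fgfr2 stood at 144, 104, 133, 88.3 and 80.4 CPM in GLAST-negative and at 632, 683, 593, 636 and 394 CPM in GLAST-positive libraries (2.42 ± 0.36, adjusted p = 4.84e-07), whereas Fgfr3 stood at 1588, 2269, 1778, 1764 and 1480.4 CPM against 761, 819, 862, 648 and 883 CPM (1.16 ± 0.29, adjusted p = 0.00313). Dusp6, a feedback inhibitor of ERK signalling, was higher in GLAST-positive libraries (89.3 to 144 against 183 to 333 CPM, adjusted p = 0.0142, call lost with S number as a term). Of 21 genes of this FGF list, 3 were called higher in GLAST-positive and 1 higher in GLAST-negative libraries, against 3.4% and 7.06% of all genes tested.

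Extracellular matrix genes were as divided. Of 32 collagen genes, 5 were called in each direction, against 7.06% of all genes tested higher in GLAST-negative and 3.4% higher in GLAST-positive libraries. Col9a3 stood at 35.7, 41.9, 37.3, 46.7 and 32.6 CPM in GLAST-negative and at 257, 265, 148, 165 and 236 CPM in GLAST-positive libraries (2.46 ± 0.33, adjusted p = 3.79e-08), and Col2a1 at 2.55, 5.98, 1.33, 3.81 and 1.12 CPM against 40.9, 25.4, 31.3, 34.3 and 43.2 CPM (3.52 ± 0.82, adjusted p = 0.00128). Both encode chains found together in cartilage fibrils, as does Col9a2 (2.81 to 8.28 against 32.6 to 60.6 CPM), and Col23a1 (7.27 to 17.3 against 44.9 to 104 CPM) and Col1a2 (40.9 to 72.2 against 93.01 to 153 CPM, call lost without GLAST-negative replicates 2 or 5 or GLAST-positive replicate 4 with an adjusted p of 0.0571 to 0.0801) had the same order. Col16a1 stood at 34.4, 52.9, 46.6, 68.6 and 59.6 CPM against 3.27, 4.93, 5.55, 3.30 and 2.45 CPM in the opposite order (3.75 ± 0.62, adjusted p = 3.86e-06), and Col1a1 at 36.5, 40.9, 29.97, 53.7 and 48.3 CPM against 1.63, 0, 5.55, 3.55 and 7.12 CPM (3.50 ± 0.81, adjusted p = 0.0012). Col11a2 (3.22 to 21.4 against 0 to 2.54 CPM) and Col27a1 (14.02 to 29.2 against 0 to 3.68 CPM) were also higher in GLAST-negative libraries. The lecticans Ncan (307, 358, 294, 239 and 321 CPM against 23.7, 48.9, 54.8, 31.99 and 41.5 CPM, 2.92 ± 0.38, adjusted p = 1.34e-08), Bcan (1418, 1458, 1414, 1308 and 1299 CPM against 191, 206, 322, 276 and 282 CPM, 2.43 ± 0.33, adjusted p = 5.41e-08) and the link protein Hapln2 (9.66 to 36.7 against 0 to 0.508 CPM) were higher in the GLAST-negative population, against Tnc alone in the other direction among 15 genes. Of 44 tested of 45 integrin, laminin and matrix glycoprotein genes, 9 were called higher in GLAST-negative libraries, such as Thbs2 (31.9, 28.5, 48.6, 33.6 and 26.98 CPM against 0.817, 0, 2.28, 1.27 and 0 CPM, 5.21 ± 0.54, adjusted p = 1.74e-11), Timp3 (134 to 203 against 32.5 to 57.1 CPM) and Itga7 (48.6 to 85.1 against 3.41 to 18.5 CPM). The 4 called higher in GLAST-positive libraries were Spock2 (77.2 to 135 against 506 to 707 CPM), Timp4 (549 to 799.6 against 1874 to 2062 CPM), Spock3 (11.96 to 34.8 against 49.6 to 133 CPM) and Nid1 (0.666 to 19.5 against 29.4 to 44.6 CPM).

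Among genes that act on synapses, 7 of 29 were called higher in GLAST-negative and 2 higher in GLAST-positive libraries. Glypicans, cell surface proteoglycans through which astrocytes act on synapse formation, were split. Gpc5 stood at 122, 155, 152, 171 and 166 CPM in GLAST-negative and at 2.45, 3.79, 12.4, 6.35 and 24.5 CPM in GLAST-positive libraries (3.91 ± 0.58, adjusted p = 4.18e-07), while Gpc6 stood at 66.3, 52.4, 65.9, 41.6 and 64.1 CPM against 452, 669, 507, 479.6 and 392 CPM (3.11 ± 0.34, adjusted p = 9.58e-11). The adhesion gene Nlgn2 was higher in GLAST-positive libraries (16.6 to 26.6 against 44.4 to 61.2 CPM, adjusted p = 0.0012). The ephrin receptor Epha5 was higher in GLAST-negative libraries (26.7 to 38.2 against 0 to 3.41 CPM, adjusted p = 6.14e-09).

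Called genes of lipid metabolism were mostly higher in the GLAST-negative population. Of 19 cholesterol synthesis genes, 8 were called higher there and none higher in GLAST-positive libraries, with a median of 0.82 and summed levels of 3073 to 4063 CPM in GLAST-negative and 1408 to 1892 CPM in GLAST-positive libraries. The list is one of the study's lists of astrocyte functions. Msmo1, a sterol demethylase, stood at 1558, 1741, 1447, 1035 and 1090.4 CPM against 353, 412, 559.99, 347 and 504 CPM (1.66 ± 0.21, adjusted p = 5.85e-09), and Mvd (89.2 to 209.6 against 27.4 to 43.2 CPM) and Nsdhl (44.6 to 80.3 against 12.5 to 21.2 CPM) had the same order. Of 16 genes of apolipoproteins, fatty acid binding and lipid export, 6 were called higher in GLAST-negative libraries and Fabp7 higher in GLAST-positive ones. Abca8a (12.9 to 19.98 against 0 to 0.326 CPM), Lrp8 (43.3 to 63.9 against 0 to 16.3 CPM) and Apod (95.7 to 300.2 against 27.4 to 84.1 CPM) were among those 6, while Apoe did not pass the test (3951 to 4857 against 2369 to 3122 CPM, adjusted p = 0.169). Of 13 tested of 16 blood-brain barrier genes, another list of the study, 8 were called higher in GLAST-negative libraries and none in the other direction, such as the glucose transporter Slc2a1 (232, 209.8, 279.7, 181 and 197 CPM against 55.2, 48.1, 51.9, 40.9 and 38.04 CPM, 2.23 ± 0.34, adjusted p = 7.64e-07), Vegfa (357, 281, 352, 376 and 436 CPM against 112, 114, 86.5, 117 and 90.1 CPM, 1.79 ± 0.36, adjusted p = 1.79e-04), Angpt1 (28.5 to 53.3 against 0 to 10.8 CPM) and Pld2 (47.2 to 107 against 18.9 to 29.8 CPM). Of 15 lactate metabolism genes, Slc2a1 and the monocarboxylate transporter Slc16a1 (117 to 162 against 45.5 to 73.4 CPM) were called higher in GLAST-negative and 1 gene higher in GLAST-positive libraries.

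Lists of reactive astrocyte genes were read against shares of 7.06% called higher in GLAST-negative and 3.4% higher in GLAST-positive libraries over all genes tested. Of 13 pan-reactive genes, 1 was called in each direction, and Vim was the one higher in GLAST-positive libraries. Of 11 tested genes of the LPS-reactive and 11 of the MCAO-reactive list, 1 each was called, Amigo2 (14.7 to 42.6 against 61.4 to 83.2 CPM, adjusted p = 0.00785) and S100a10 (11.1 to 34.96 against 79.97 to 138 CPM, adjusted p = 1.04e-04), both higher in GLAST-positive libraries. With S number as a term the log2 fold change of Amigo2 was 0.05, in the opposite direction and not called. Of 23 immediate early and dissociation genes, 2 were called, Jun (40.6 to 89.3 against 93.5 to 185 CPM, log2 fold change of -0.99 and no call without GLAST-positive replicate 1) and Ier3 (8.43 to 17.98 against 94.8 to 151 CPM), both higher in GLAST-positive libraries, with summed levels of 205 to 281 CPM in GLAST-negative and 421 to 525 CPM in GLAST-positive libraries. Of 18 cell cycle genes, 1 was called in each direction. Of 7 tested myelination support genes of the study, 1 was called, higher in GLAST-negative libraries. Of the 13 protein-coding mitochondrial genes 1 was called, higher in GLAST-negative libraries. Yet 6 of the 13 were higher there without overlap, against 7.39% of all genes tested, and the median log2 fold change was 1.03. Their summed level was 42689 to 65309 CPM in GLAST-negative and 27608 to 34576 CPM in GLAST-positive libraries.

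**Figure D5:**
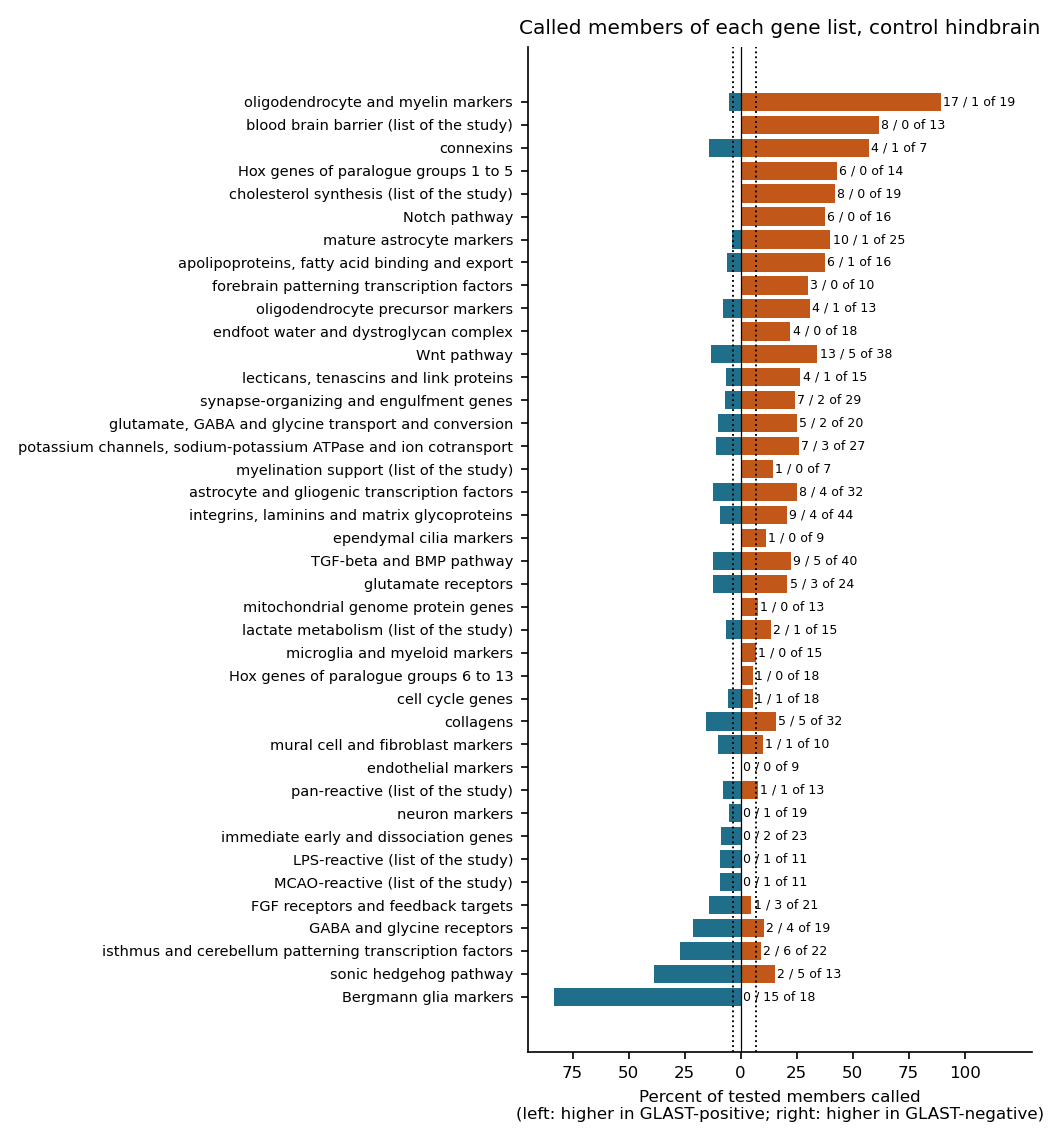
Percent of the tested members of each gene list that were called higher in GLAST-negative (right) or GLAST-positive libraries (left), with the counts beside each bar as higher in GLAST-negative / higher in GLAST-positive of tested. Dotted lines mark the shares over all genes tested, 7.06% and 3.4%. Bergmann glia markers reach furthest to the left and oligodendrocyte and myelin markers furthest to the right.

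Markers of other cell types were unequal between the populations. Of 19 oligodendrocyte and myelin genes, 17 were called higher in GLAST-negative libraries, with a median of 2.84 and summed levels of 2209.7 to 6597 CPM in GLAST-negative and 2132 to 2622 CPM in GLAST-positive libraries, which overlapped. Mag stood at 386, 161, 244, 413 and 209 CPM in GLAST-negative and at 31.5, 26.9, 42.1, 17.01 and 25.8 CPM in GLAST-positive libraries (3.31 ± 0.45, adjusted p = 4.87e-08) and Mog at 43.8, 8.28, 21.3, 30.8 and 17.4 CPM against 2.45, 0, 5.55, 1.27 and 1.96 CPM (3.43 ± 0.61, adjusted p = 2.04e-05). Mbp stood at 163 to 540.1 against 42.7 to 88.9 CPM. Within the GLAST-negative group the replicates 1 and 4 were high and replicate 2 low for Mag and Mog. Cnp was called in the opposite direction (256 to 493 against 779.8 to 894 CPM, adjusted p = 2.29e-04). The lineage factor Olig2 was even across GLAST-negative libraries, at 264, 315, 279, 246 and 272 CPM against 11.4, 18.95, 29.04, 27.2 and 19.1 CPM (3.69 ± 0.37, adjusted p = 6.42e-12), and Olig1 likewise (193 to 290.3 against 20.9 to 36.05 CPM, adjusted p = 8.43e-11). Sox10 stood at 16.6 to 30.6 against 1.63 to 11.4 CPM (adjusted p = 0.00239), and of 13 precursor markers 4 were called higher in GLAST-negative libraries and Cacng4 higher in GLAST-positive ones (117 to 135 against 404 to 552 CPM, adjusted p = 5.85e-09). The precursor list summed to 689 to 813 CPM in GLAST-negative and 489 to 619.6 CPM in GLAST-positive libraries. Without the genes of both lists in the fit, 1603 of the 1646 and 790 of the 792 calls remained. The calls of the genes left out are among those lost. Reads of other genes from such cells stayed in the counts, so this number cannot measure their part. The part of oligodendrocyte RNA in the other differences was not tested.

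Of 19 markers of cerebellar neurons, Gad1 alone was called, higher in GLAST-positive libraries (6.44 to 58.6 against 30.7 to 199 CPM, adjusted p = 8.66e-04, call lost with S number as a term), and the list summed to 135 to 336 CPM in GLAST-negative and 148 to 511 CPM in GLAST-positive libraries. Microglia and myeloid markers summed to 52.3 to 141 CPM in GLAST-negative and 58.4 to 118 CPM in GLAST-positive libraries with 1 call in 15 genes, Ptprc, the gene of the CD45 that the sort excluded (0 to 5.95 against 0 to 0 CPM, call lost without GLAST-negative replicates 1 or 4 or GLAST-positive replicates 2, 3, 4 or 5 with an adjusted p of 0.0517 to 0.0779). Endothelial markers summed to 2.30 to 11.8 CPM in GLAST-negative and 0 to 6.53 CPM in GLAST-positive libraries and had no call among 9 genes tested, and 5 erythrocyte genes summed to 2.77 to 40.9 CPM in GLAST-negative and 0.409 to 8.84 CPM in GLAST-positive libraries with no call. Mural cell and fibroblast markers summed to 125 to 152 CPM in GLAST-negative and 128 to 199 CPM in GLAST-positive libraries, with Col1a1 called higher in GLAST-negative and Col1a2 higher in GLAST-positive libraries among 10 genes. Ependymal markers summed to 23.9 to 41.96 CPM in GLAST-negative and 25.5 to 52.9 CPM in GLAST-positive libraries with 1 call of 9 tested, higher in GLAST-negative libraries, and choroid plexus markers to 89.9 to 128 CPM in GLAST-negative and 7.77 to 33.9 CPM in GLAST-positive libraries with Otx2 called in the same direction among 5 tested. Otx2 made up most of that sum, and the other 4 choroid plexus genes summed to 6.18 to 16.1 CPM in GLAST-negative and 4.90 to 19.7 CPM in GLAST-positive libraries with no call.

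The largest changes were looked for among the 1628 calls without overlap whose higher population averaged 5 CPM or more, 996 higher in GLAST-negative and 632 higher in GLAST-positive libraries. The 12 with the largest fold change towards the GLAST-positive population were Gm26634, Gm11637, Tex36, Phex, Sstr2, Gm29521, Traf1, Cys1, Ctxn3, Gdf10, Fbxl2 and Sowaha. Ctxn3, which encodes a small membrane protein, stood at 19.97, 7.82, 7.33, 6.58 and 4.50 CPM in GLAST-negative and at 235, 233, 206, 244 and 151 CPM in GLAST-positive libraries (4.51 ± 0.48, adjusted p = 2.46e-11). Traf1, an adaptor of TNF receptors, stood at 3.82, 0.46, 0.666, 4.16 and 1.12 CPM against 56.8, 47.8, 56.1, 71.6 and 49.1 CPM (4.67 ± 0.89, adjusted p = 6.57e-05). Sowaha (0 to 5.54 against 70.5 to 94.2 CPM, adjusted p = 6.01e-09) and the cilium gene Cys1 (0 to 3.46 against 14.03 to 27.98 CPM, adjusted p = 2.40e-04) followed. The other 7 beside Gdf10 were at or under the floor in every GLAST-negative library, so that their folds are lower bounds, and 8 of the 12 (all but Traf1, Ctxn3, Gdf10 and Sowaha) lost their calls with S number as a term. Phex, an endopeptidase gene known from bone, stood at 12.3, 14.02, 14.7, 19.04 and 21.8 CPM in GLAST-positive libraries, at least 8.19-fold higher, and Sstr2, a somatostatin receptor, at 1.72 to 15.9 CPM, at least 5.81-fold higher. The lincRNA gene Gm26634 stood at 8.99, 15.5, 2.61, 2.03 and 8.59 CPM, at least 3.78-fold higher. The bounds of Tex36, Gm11637, Fbxl2 and Gm29521 were 3.021, 3.40, 3.41 and 2.92, and the last 3 lost their calls when single libraries were left out, with adjusted p-values up to 0.0719.

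Towards the GLAST-negative population the 12 genes were Gm12338, Smyd1, Robo1, Samd9l, Gm44021, Gm45353, 6330415B21Rik, Sox3, Gm37678, Gm30437, Hs3st3b1 and Gm27477. All were at or under the floor in every GLAST-positive library. Sox3, a transcription factor of neural progenitors, stood at 20.8, 34.5, 13.3, 23.5 and 25.3 CPM in GLAST-negative libraries, at least 19.2-fold higher (adjusted p = 2.45e-09), and stood at 0.409 CPM in 1 GLAST-positive library and at 0 in the other 4. Smyd1, a lysine methyltransferase gene known from muscle, stood at 28.05, 23.9, 23.3, 19.4 and 17.99 CPM, at least 18.4-fold higher (adjusted p = 3.10e-07). Robo1, a receptor for Slit guidance cues, stood at 14.4, 25.3, 7.99, 13.5 and 11.2 CPM, at least 11.8-fold higher (adjusted p = 8.47e-07). Gm12338, a processed pseudogene whose reads may come from a near-identical gene, stood at 243, 1.38, 4.66, 0.346 and 2.81 CPM, so that its mean rested on replicate 1. The bounds of the other 8 lay between 6.52 for Gm27477 and 9.54 for Samd9l, with 6.61 for Hs3st3b1, 7.22 for Gm30437, 7.45 for Gm37678, 8.13 for 6330415B21Rik, 8.54 for Gm45353 and 9.03 for Gm44021.

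The same contrast was read in libraries that the control comparison did not use. Mice with a limp tail (E1) gave 6 GLAST-negative and 6 GLAST-positive hindbrain libraries, mice with hind limb paralysis (E4) 6 and 6, and chronic EAE (Ech) 6 and 4. Of the 1646 genes higher in GLAST-negative control libraries, 1005 (61.1%) were called in the same direction at E1, 889 (54.01%) at E4 and 633 (38.5%) at Ech, which were 47.4%, 49.1% and 56.1% of the calls at those stages. Of the 792 genes higher in GLAST-positive control libraries, 522 (65.9%), 460 (58.1%) and 461 (58.2%) were called, or 54.5%, 64.3% and 43.04% of the calls there. The share of all genes tested that were called at these stages was 9.1%, 7.77% and 4.84% higher in GLAST-negative and 4.1%, 3.07% and 4.59% higher in GLAST-positive libraries. The 1128 calls higher in GLAST-negative libraries at Ech became 688 without GLAST-positive replicate 2 of that stage, 774 without its replicate 3, 737 without its replicate 4 and 1354 without its replicate 1. Of the 1646 genes, 738 (44.8%) were called at Ech without replicate 1, 439 (26.7%) without replicate 2, 448 (27.2%) without replicate 3 and 445 (27.0%) without replicate 4. At most 2 genes of either set were called in the opposite direction at a stage. Called in the same direction in controls and at all 3 stages were 444 and 325 genes.

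Among these, Gdf10 ranged from 47.3 to 155 CPM in GLAST-negative and 1663 to 2665 CPM in GLAST-positive libraries at E1, from 78.5 to 217 and 1055 to 3255 CPM at E4 and from 57.2 to 95.5 and 995 to 2402 CPM at Ech. Gria1 was higher in GLAST-positive libraries by 2.36, 2.05 and 2.03 in log2 at the 3 stages, and Gria4 by 2.78, 2.39 and 2.00, all called. Gria2 was higher in GLAST-negative libraries by 2.01 at E1 and 2.08 at E4, both called, and by 0.76 at Ech, where it was not called (adjusted p = 0.125) with 222 to 452 CPM against 112 to 325 CPM. GLAST-positive replicate 1 of Ech alone overlapped the GLAST-negative libraries, at 325 CPM against 112 to 167 CPM in the other 3, and without it Gria2 was called (1.16, adjusted p = 0.0256). Gabbr2 was called at E1 and E4 and not at Ech (adjusted p = 0.178), where the same library alone overlapped, at 265 CPM against 103 to 152 CPM in the other 3, and without it the difference was 1.12 with an adjusted p of 0.0729. That library was also the highest of its group for Grin2c, at 105 CPM against 20.97 to 29.9 CPM, and the lowest for Gria4, at 329 CPM against 685 to 874 CPM, and for Gdf10, at 995 CPM. Whether the differences at Ech were smaller than in controls was not tested. Of the 18 Bergmann glia genes, 14, 13 and 12 were called higher in GLAST-positive libraries at E1, E4 and Ech and none in the other direction. Of the 15 called in controls, Ptch1 was not called at E1, Ptch1 and Fabp7 at E4, and Ptch1, Gli1 and Etv5 at Ech. Of the 19 oligodendrocyte genes, 17, 17 and 7 were called higher in GLAST-negative libraries. The Hox list of groups 1 to 5 had 9, 9 and 6 calls higher in GLAST-negative libraries of 14, the cholesterol synthesis list 9, 15 and 8 of 19 and the Notch list 6, 7 and 4 of 16, with none in the other direction.

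S number divided the hindbrain populations at every stage, with no GLAST-negative hindbrain library above 56 and no GLAST-positive one under 57. Spinal cord GLAST-negative libraries fell on both sides, 4 above and 1 below at E1, 1 and 5 at E4, and 4 and 2 at Ech, which allowed a term for S number (57 and above against 56 and below) in the fit of all 66 libraries. Of 23324 genes, 2 (0.00857%) were called for that term itself, 1 (0.00429%) higher and 1 (0.00429%) lower at the upper S numbers. With the term in the fit, 1606 genes in all were called between the control populations, and 938 of the 1646 and 391 of the 792 calls remained, none with the opposite direction. The Bergmann glia list kept 9 of its 15 calls and the oligodendrocyte list 14 of its 17. The Bergmann glia genes that kept their calls were Gdf10, Gria1, Gria4, Hopx, Sept4, Tnc, Vim, A2m and Slc1a3. Gdf10 differed by 3.78, Slc1a3 by 1.96, Gria1 by 1.45 and Gria4 by 2.68 towards the GLAST-positive population, all called. Of the 173 genes named here, 34 lost their calls with the same direction and 2, Amigo2 and Gas1, with the opposite one. Those not marked above were Fabp7, Etv5, En2, Zic2, Col1a2, Timp4, Apod, Sox10, Ptprc and Gm30437. For Wif1 and Gm29521 the F statistic with the term vanished, so that no SE could be derived. Among the other genes that kept their direction, the SE with the term exceeded the size of the difference for Tex36 (8869), Phex (22.7), Otx2 (9.74), Gli1 (3.80), Zic4 (2.02) and Zic2 (1.27). The lost calls of all these genes therefore do not show that their differences shrank. With a linear term for S number, 25 of the 173 genes lost their calls. Wif1, Otx2, Zic4, Id4, Cys1, Tex36, Gm11637, Gm26634, Sox10, Apod and Timp4 kept theirs. The term rests on spinal cord libraries and assumes an equal shift in hindbrain, which cannot be tested here.

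The contrast was also read in FVB/N mice, in 3 hindbrain GLAST-negative and 3 hindbrain GLAST-positive libraries by their labels. The group names of a supplementary normalized-count table of the study differ from the labels for 12 of 15 libraries of that experiment, and both namings are given. Libraries labelled hindbrain GLAST-negative carry the name spinal cord GLAST-negative there, and those labelled hindbrain GLAST-positive the name forebrain GLAST-positive. By the supplementary names, the contrast by labels is thus one of spinal cord against forebrain. By the labels, 132 of 1420 genes higher in GLAST-negative C57BL/6J libraries and tested in both (9.30%, and 43.6% of the FVB/N calls) were called in the same direction and 58 in the opposite one, and of 773 genes higher in GLAST-positive libraries 38 (4.92%, and 13.1%) and 36. By the names of the supplementary table, 268 (18.9%, and 71.7%) were called in the same and 1 in the opposite direction, and 142 (18.4%, and 76.8%) and 1. Over all genes tested in FVB/N, 2.03% and 1.95% were called in the 2 directions by the labels and 2.52% and 1.24% by the supplementary names.

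Gdf10 had 11.96 ± 11.1 CPM in the FVB/N libraries labelled hindbrain GLAST-negative and 70.6 ± 11.02 CPM in those labelled hindbrain GLAST-positive (SD, n = 3). Its highest level, 2241 ± 423 CPM, was in the libraries labelled spinal cord GLAST-negative, which the supplementary table names hindbrain GLAST-positive. Those libraries also held 1379.6 ± 401 CPM of Hopx, 1609 ± 106 CPM of Gria1 and 0.322 ± 0.558 CPM of Hoxd4, whereas the libraries labelled hindbrain GLAST-negative held 85.8 ± 29.9 CPM of Hoxd4. The log2 fold change of Gria4 (GLAST-negative minus GLAST-positive) was 4.15 by the labels and -2.60 by the supplementary names, and that of Slc6a11 0.46 and 1.71.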

How the data were processed

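Libraries were prepared with QuantSeq 3' mRNA-Seq FWD and read once for 50 bases. Per the labels and the study's methods, the authors trimmed reads, aligned them with HISAT 0.1.5 to GRCm38, sorted them with SAMtools and counted them per gene with HTSeq 0.6.1p1. The deposited values are raw counts per gene for 48526 genes in 66 EAE libraries and, in a separate table, for the FVB/N libraries, and 48058 gene IDs of the former had a symbol. Genes with a total of at least 10 over the libraries of a fit were tested with edgeR 4.0.16 (R 4.3.3, limma 3.58.1), using TMM scaling and a quasi-likelihood fit of all 12 EAE groups, which shared 1 estimate of the spread. DESeq2 1.42.0 was an alternative. The fit was also run on simulated counts whose spread was set by a formula and not taken from these libraries. Of 200 genes changed by 2 in log2, 153 (76.5%) were called in the right direction, with 4 calls among unchanged genes. Totals of 1554784 to 3957998 counts set the floor of 3 counts at 0.736 to 2.00 CPM. FVB/N libraries were fitted on their own, by their labels and by the names of a supplementary table of normalized counts, matched to the deposited counts by proportional columns.

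Named genes were Gdf10, Slc1a3 and Atp1b2, in each direction the 12 calls of largest fold change that did not overlap and averaged 5 CPM or more in the higher group, and members of 42 gene lists, called members first. The members and the lists were chosen with earlier results of these data known. Counts of 2 lists without 1 member (Slc1a3 or Otx2) were added after seeing the data. Some members of the lists are not reported here by name, though the counts include them. Cultured astrocytes were not used here. Tables and plots were made with Python 3.11.15 (numpy 2.4.6, pandas 2.3.3 and matplotlib 3.10.9).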

Additional observations from a re-analysis of the deposited data

Results flagged for a closer look

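Among 136 sets of 5 values tested for a sample far from the others (Dixon's ratio above 0.71), 8 were marked, and chance marks about 1 in 20. In GLAST-negative libraries replicate 1 was far above the others for Hopx (126 CPM), Ctxn3 (19.97 CPM) and Gm12338 (243 CPM) and far below them for Meis2 (98.2 CPM). In GLAST-positive libraries Kcnk1 was highest in replicate 3 (67.6 CPM) and Gli1 in replicate 2 (43.6 CPM), Aqp4 was lowest in replicate 3 (667 CPM) and Fzd2 in replicate 1 (13.9 CPM). For Gm12338 the other GLAST-negative libraries reached at most 4.66 CPM.

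For 4 genes the FVB/N libraries, grouped by their labels, had the opposite direction to the C57BL/6J control libraries. The difference was not tested, and the supplementary names of 12 of the 15 FVB/N libraries disagree with those labels. They name the groups compared by labels spinal cord GLAST-negative and forebrain GLAST-positive. The log2 fold change (GLAST-negative minus GLAST-positive) by labels was -0.81 for Gria2, 4.15 for Gria4, -1.61 for Grin2c and 2.19 for Slc38a1. By the supplementary names it was 1.398, -2.60, 1.35 and -1.45, in the direction of the C57BL/6J controls.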

How the results depend on the processing

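No gene called in the control comparison was called in the opposite direction under any of the alternatives run. The counts of calls higher in GLAST-negative and in GLAST-positive libraries were 1868 and 810 by DESeq2, 1742 and 718 with its size factors, 1637 and 871 with filterByExpr, 1570 and 755 with no filter on low counts, 1614 and 971 in a fit of the 10 libraries alone, and 1603 and 809 without the oligodendrocyte and precursor lists. With S number as a term they were 1127 and 479 (1606 in all) for 2 ranges of S numbers and 1081 and 578 for a linear term. In the first fit Amigo2 (0.0489 in log2) and Gas1 (0.0787) changed direction. The same term gave 1282 and 530 calls (1812 in all) at E1, 1105 and 377 (1482) at E4 and 720 and 550 (1270) at Ech. The cause was not tested.

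Leaving out each control library gave 1984 to 2393 calls, 1276 to 1566 higher in GLAST-negative and 650 to 827 higher in GLAST-positive libraries. Leaving out each chronic library gave 1501 to 2521 calls at Ech, 688 to 1354 and 813 to 1167 by direction, with 688 higher in GLAST-negative libraries without GLAST-positive replicate 2, 737 without replicate 4 and 1354 without replicate 1. The same chronic libraries left out gave 3026 to 3130 calls at E1 (2093 to 2220 and 894 to 987). At E4 they gave 2478 to 2576 (1808 to 1894 and 667 to 729). No E1 or E4 library was left out, so these narrow ranges do not test how those contrasts depend on single libraries. Leaving out each FVB/N library labelled hindbrain gave 435 to 508 (215 to 270 and 213 to 238).

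For S number itself, 2 genes were called in the fit of all libraries (1326 at an unadjusted p under 0.05), 54 by DESeq2 (48 and 6 by direction), 18 with no filter (15 and 3), 1 with filterByExpr (0 and 1) and 0 in spinal cord libraries alone (0 and 0), where edgeR gave 589 at an unadjusted p under 0.05. In FVB/N the supplementary names gave 185 genes higher in GLAST-positive libraries.

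Replicate numbers did not pair the libraries. Deviations of same-numbered libraries correlated by -0.0868 to 0.0269, and in 0 of 5 pairs was the number's own partner the closest. With a replicate block 2442 genes were called (1497 and 945), and among the named genes Grm7, Hoxb8 and Ptprc lost their calls. Blocks for numbers shared between library names gave 2279 (1463 and 816). There 1088 of the 1646 and 659 of the 792 calls remained, and among the named genes Col1a2, En2, Fbxl2, Grm7, Hoxb8 and Ptprc lost their calls. Floors of up to 2.00 CPM limit what is said of genes near 0, and population and S number cannot be told apart.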
